A study of Mus musculus with 6 samples.

Results

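Podocytes are the epithelial cells that cover the outer face of the glomerular capillaries. Their interdigitating foot processes are held in shape by an actin cytoskeleton and kept apart by a negatively charged coat on the apical membrane. The genes described here encode that apical coat and its links to actin, actin-binding and other cytoskeletal proteins, polarity proteins, membrane receptors, and proteins that podocytes secrete or that modify the surrounding matrix. Slit diaphragm proteins, transcription factors and structural matrix proteins of the podocyte were left out of the set by its definition. Of the 36 genes, 34 had a probe set under their symbol in the array annotation, and all 34 passed the filter on dim probe sets, among 11159 genes tested in all. Arhgdia and Crb2 were not analysed here.

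The data were Affymetrix arrays of glomeruli isolated with magnetic beads from 6 female mice aged 6 weeks, with 1 array per mouse. In 3 mice, Cre recombinase under the podocin promoter had excised a floxed Vhl gene in podocytes, and 3 littermates labelled wild-type were the controls; the breeders carried a single copy of the Cre transgene and were homozygous for the floxed allele, and no further genotype of the controls is given in the sources used here. Vhl encodes a ubiquitin ligase component that marks hypoxia-inducible factors for breakdown. Mice of the deleted group were those whose urinary albumin, sampled at 4 weeks, did not exceed the average of their wild-type littermates.

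Values are MAS5 signals on a linear scale. Each change is a log2 difference of signal + 28, Vhl-deleted minus wild-type, from limma, with its standard error (SE) or 95% interval, and a gene was called at an adjusted p below 0.05 over all 11159 genes. There were 3 arrays per group, and their number limits the precision. The targeted gene, Vhl, read 727 ± 74.1 (SD, n = 3) in the controls and 612 ± 6.46 (SD, n = 3) after deletion, a change of -0.23 (95% interval -0.51 to 0.04, limma adjusted p = 0.944). Cells other than podocytes keep Vhl in this model. Control probe sets gave a 3′ to 5′ ratio of 0.773 to 0.829 (Gapdh) and 1.30 to 1.38 (actin). The podocyte markers Nphs1 and Wt1 were bright in all 6 arrays, with signals from 4827 to 9142 and from 4135 to 9031. The tubule marker Lrp2 was bright as well, between 4943 and 6282 in 5 arrays and at 1018 in wild-type replicate 3.

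The comparison asked how these genes differ after loss of Vhl in podocytes of mice without raised urinary albumin at 4 weeks. None of the 34 genes was called, against 0.0807% of all genes tested (9 genes; 8 rose and 1 fell). That background rests on how the probe set of a gene is picked, and other readings of that rule, some of which also move the filter, gave 9 to 15 genes, again with 0 members called. Most of the 34 genes sat slightly lower in the Vhl-deleted arrays: 27 of 34 had a negative change (79.4%, against 49.1% of all genes), with a median of -0.11 against 0.00 over all genes. The lowest values belonged to Npr3, Plce1, Ddn, Dach1 and Sulf1, between -0.57 and -0.49, and the highest to Ptgds (0.71) and Inf2 (0.58). Without adjustment, 5 of 34 genes had a limma p below 0.05 (Npr3, Inf2, Plce1, Srgap1 and Ddn), against 4.92% of all genes. In glomerular RNA, fewer podocytes, a larger share of tubule or other RNA, and less transcript per podocyte cannot be told apart.

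The separation of the 2 groups was clean in 8 genes, counted over the 3 arrays of each. Every Vhl-deleted value was under every wild-type value in 7 of 34 genes, against 5.64% of all genes, and over it in 1 (Inf2), against 5.04%. In either direction the background was 10.7%. The precision varied between genes: the 95% interval of a change was between 0.42 and 2.27 log2 units wide, with a median of 0.71.

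Hypoxia-inducible factors bind a short DNA core, and its letters were counted on both strands in RefSeq promoter windows (GRCm38.p6, 250 bases before to 50 after a start), of which 27 of the 34 genes had at least 1. ACGTG occurred in 7 of 27 genes (Dag1, Ildr2, Inf2, Pard3, Pdpn, Robo2 and Sulf2; 21.8% of all genes in the table) and GCGTG in 12 of 27 (35.2%). ACGTG overlaps the E-box CACGTG, which holds it on both strands. The windows of the 2 genes of lowest p are shown, with either core in capitals: Inf2 at chr12:112588517-112588816 (plus strand, the window listed first for this gene), which has ACGTG once alone and once as CACGTG, and Npr3 at chr15:11907322-11907621 (minus strand), which has neither. A match is a run of letters and not a binding site.
Inf2: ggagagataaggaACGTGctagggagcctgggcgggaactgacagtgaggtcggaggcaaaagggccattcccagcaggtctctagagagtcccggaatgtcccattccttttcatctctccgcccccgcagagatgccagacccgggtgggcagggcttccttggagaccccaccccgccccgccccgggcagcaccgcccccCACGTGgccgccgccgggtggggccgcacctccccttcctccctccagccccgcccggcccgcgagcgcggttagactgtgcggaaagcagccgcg
Npr3: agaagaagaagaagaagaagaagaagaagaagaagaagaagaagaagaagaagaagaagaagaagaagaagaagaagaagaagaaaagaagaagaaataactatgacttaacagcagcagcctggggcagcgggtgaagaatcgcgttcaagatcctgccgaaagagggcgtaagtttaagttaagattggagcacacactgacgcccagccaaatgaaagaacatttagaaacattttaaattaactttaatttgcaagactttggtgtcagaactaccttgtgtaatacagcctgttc

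**Figure D1:**
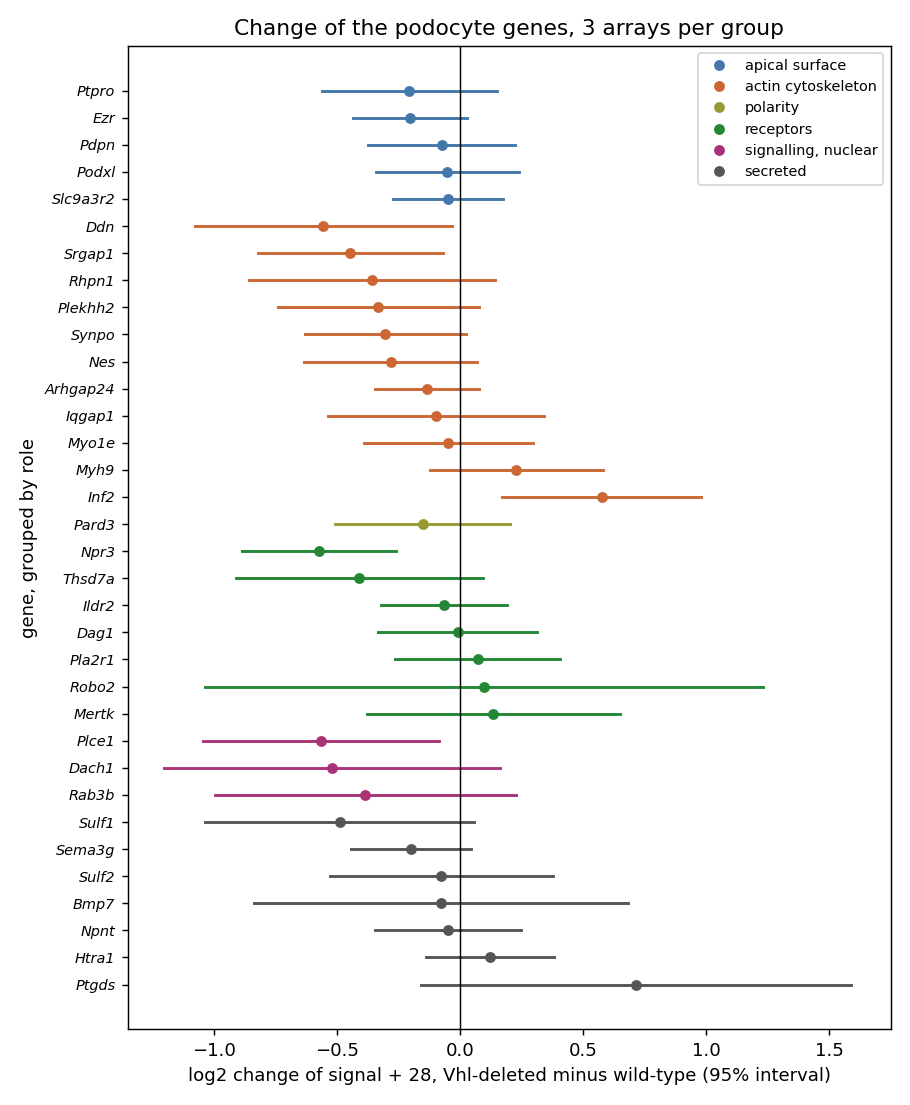
Log2 change of signal + 28, Vhl-deleted minus wild-type, on the horizontal axis for 34 podocyte genes grouped by role; points are limma estimates and bars 95% intervals, from 3 arrays per group. The intervals of 4 genes (Npr3, Plce1, Srgap1 and Ddn) lie below 0 and that of Inf2 lies above 0, while none of the 34 was called after adjustment.

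The arrays differed within each group. Wild-type replicate 3 had the highest signal of the 6 arrays in 24 of the 34 genes (70.6%, against 31.2% of all genes), and Vhl-deleted replicate 3 had the lowest in 18 (52.9%, against 23.0%). The tubule markers ran the other way, with wild-type replicate 3 lowest and Vhl-deleted replicate 3 highest in 17 of 19 each. The mean log2 level of the 34 genes was 11.93, 11.94 and 12.24 for wild-type replicates 1, 2 and 3, against 11.98, 11.93 and 11.77 after deletion. That of the 19 tubule markers was 12.28, 12.59 and 10.71 in wild-type against 12.16, 12.07 and 12.90 in Vhl-deleted arrays. The part of tubule RNA in the changes below was not tested. The tubule mean was lowest in wild-type replicate 3 and highest in Vhl-deleted replicate 3. The covariate fit and the fits without single arrays therefore cannot separate tubule RNA from other differences of these arrays.

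Without wild-type replicate 3 the median of the 34 genes was -0.03 and 20 of 34 were negative (58.8%, against 52.6% of all genes), and the value of 30 genes was higher than with all arrays. Leaving out an array can only add genes without overlap: none was added to the 7 lower ones (background 9.23%), and Htra1 and Mertk joined Inf2 among the higher ones (background 10.7%). Without Vhl-deleted replicate 3, 24 of the 34 were negative and the median was -0.12. Over the 6 fits that each left out 1 array, 19 genes were negative and 4 (Inf2, Ptgds, Myh9 and Htra1) positive in every one.

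**Figure D2:**
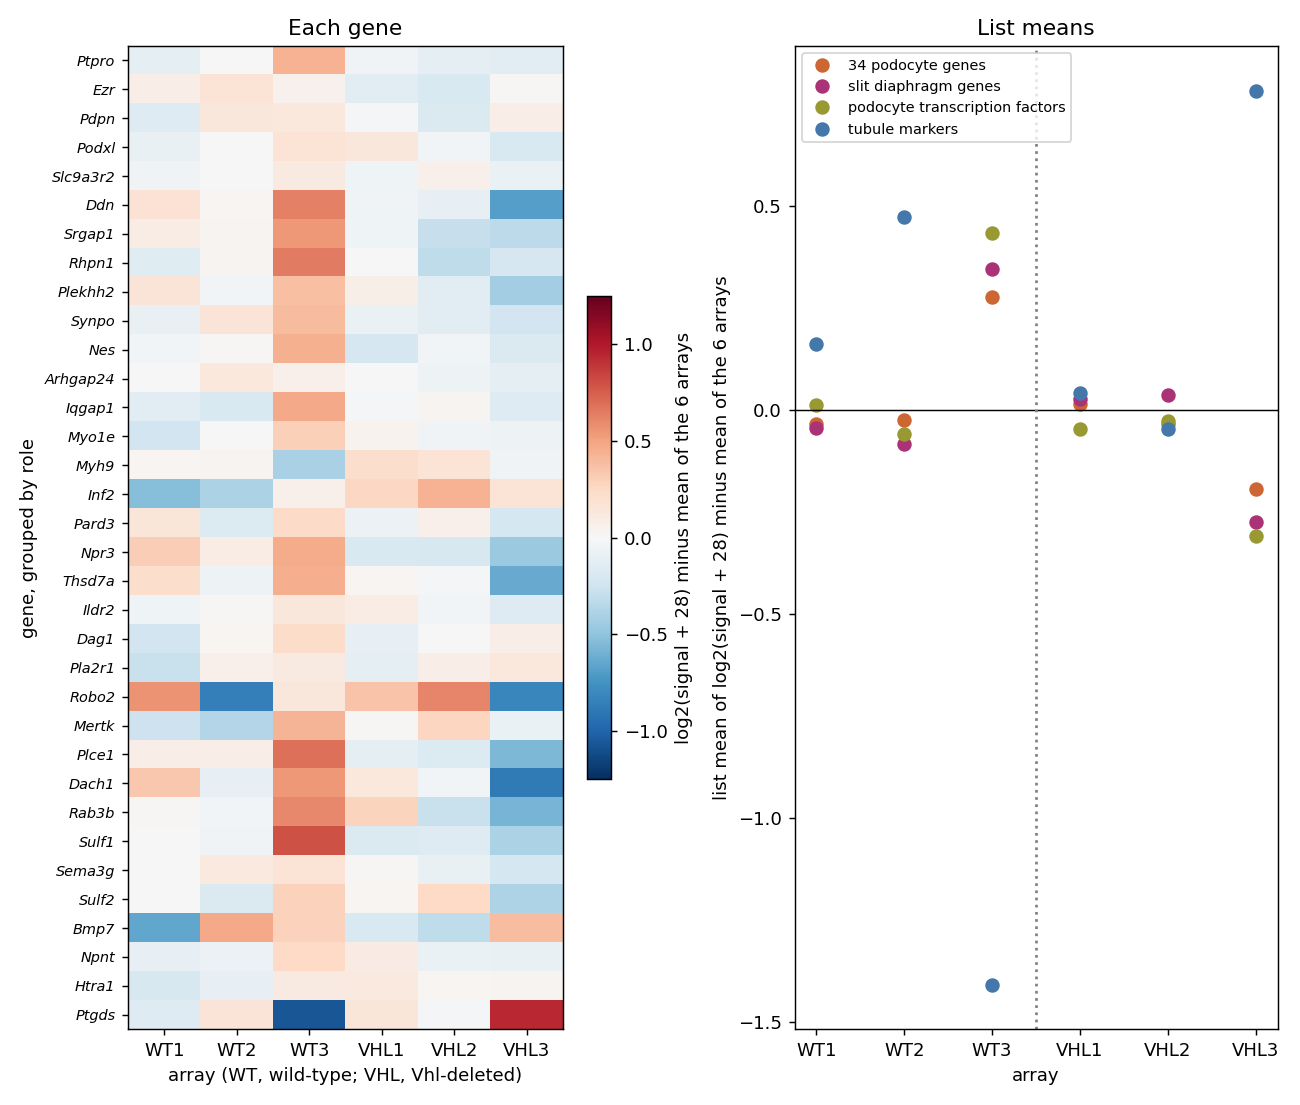
Left, log2(signal + 28) of each of the 34 genes in each array minus its mean over the 6 arrays, red for higher and blue for lower; right, the same for the means of 4 gene lists. Wild-type replicate 3 is the highest array for 24 of the 34 genes and the lowest for tubule markers as a list mean, at 10.71.

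Genes of the apical surface had small changes. Podxl encodes podocalyxin, the sialomucin that gives the podocyte surface its negative charge. Its brighter probe set (1448688_at) gave signals of 25462, 27034 and 30441 in wild-type against 29861, 26494 and 23771 in Vhl-deleted replicates 1, 2 and 3. The groups overlapped, and the change was -0.05 (95% interval -0.34 to 0.24, limma adjusted p = 0.962); without wild-type replicate 3 it was 0.02. The dimmer probe set of Podxl (1417396_at) read 4017, 4034 and 5327 in wild-type against 3577, 3259 and 3025 in Vhl-deleted arrays, with no overlap and a change of -0.43 (SE 0.14, limma adjusted p = 0.945 over all probe sets). The 2 probe sets of this gene thus differed in size, and which of them better follows the transcript was not tested.

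Ezr encodes ezrin, which ties podocalyxin to actin and is also a major protein of the proximal tubule brush border. Its signals were 6723, 7176 and 6579 in wild-type against 5815, 5569 and 6406 in Vhl-deleted replicates 1, 2 and 3. All 3 Vhl-deleted values lay below the lowest wild-type value, by a small margin for replicate 3, with a change of -0.20 (SE 0.10, limma adjusted p = 0.944). Unlike most of the set, Ezr was not highest in wild-type replicate 3, and its value without that array was -0.23. Ezr had a second kept probe set at -0.14, whose groups overlapped.

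The scaffold gene Slc9a3r2, whose product NHERF2 joins podocalyxin to ezrin, was at -0.05 (95% interval -0.27 to 0.18), and its 6 probe sets all lay between -0.15 and -0.05. Ptpro, the apical receptor tyrosine phosphatase GLEPP1, was at -0.21 (95% interval -0.56 to 0.15), and its second probe set, without overlap, at -0.31. Without wild-type replicate 3 the Ptpro change was -0.04. The mucin-type glycoprotein gene Pdpn (podoplanin) was at -0.08. As a group, the 5 apical genes were all negative with a median of -0.08, and 0 were called; without wild-type replicate 3, 4 of 5 were negative and the median was -0.03.

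The actin cytoskeleton genes spread wider, with 9 of 11 negative, a median of -0.28 and 0 called; without wild-type replicate 3, 7 of 11 were negative and the median was -0.13. Inf2, a formin that nucleates and severs actin filaments and is mutated in inherited focal segmental glomerulosclerosis, stood on the other side. Its signals were 1250, 1369 and 1899 in wild-type against 2181, 2466 and 2043 in Vhl-deleted replicates 1, 2 and 3. All Vhl-deleted arrays exceeded all wild-type arrays, and the mean signal moved from 1506 ± 346 to 2230 ± 216 (SD, n = 3).

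The Inf2 change was 0.58 (SE 0.17, 95% interval 0.17 to 0.98, 1.49-fold, limma adjusted p = 0.780). Its other probe set (1432184_a_at) had lower signals, 291, 280 and 436 in wild-type against 503, 580 and 586 in Vhl-deleted arrays. It separated the groups in the same direction, with a change of 0.71 (SE 0.19). Wild-type replicate 3 was the highest of the wild-type arrays in both probe sets, and without it the change was 0.75 (limma adjusted p = 0.169). With the tubule list mean as a covariate Inf2 was called, at 0.72 (limma adjusted p = 0.0426), in a fit that called 35 of 11159 genes against 9 in the main fit. With the mean of 13 slit diaphragm and transcription factor genes as a covariate it was at 0.79 (limma adjusted p = 0.062). Inf2 was called in no other fit. Its limma adjusted p was 0.992 with the replicate block, and 0.863 and 0.799 without wild-type replicates 1 and 2. Without Vhl-deleted replicates 1, 2 and 3 in turn, its limma adjusted p was 0.977, 0.908 and 0.998.

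Synpo encodes synaptopodin, an actin-bundling protein of foot processes. It gave 15768, 18780 and 22136 in wild-type against 15913, 15378 and 14226 in Vhl-deleted replicates. Only wild-type replicate 1 fell within the range of the other group, and the change was -0.30 (SE 0.14, limma adjusted p = 0.944), or -0.18 without wild-type replicate 3. Ddn encodes dendrin, a protein found at the slit diaphragm and in the nucleus, and its signals were 7312, 6557 and 9957 in wild-type against 6262, 5985 and 3984 in Vhl-deleted arrays. The groups did not overlap but the nearest values were 6557 and 6262, and the change of -0.56 (SE 0.22) drew on wild-type replicate 3 and Vhl-deleted replicate 3. It was -0.38 without the former and -0.35 without the latter, and -0.25 with the podocyte list mean as a covariate.

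Srgap1 and Arhgap24 encode GTPase-activating proteins. Srgap1 signals were 2874, 2754 and 3912 in wild-type against 2594, 2193 and 2134 in Vhl-deleted arrays. No value overlapped, and the change was -0.45 (SE 0.16, limma adjusted p = 0.933), or -0.29 without wild-type replicate 3. Arhgap24 gave 10773, 11726 and 11150 in wild-type against 10637, 10207 and 9826 in Vhl-deleted arrays. Its groups were just apart, with a small change of -0.13 (SE 0.09, limma adjusted p = 0.944). The second kept probe set of Arhgap24 (1430712_at) was at -0.10, and its groups overlapped. Plekhh2, an actin-stabilising protein of foot processes, was at 704, 609 and 820 in wild-type against 662, 563 and 457 in Vhl-deleted arrays. The groups overlapped and the change was -0.33 (SE 0.17), or -0.20 without Vhl-deleted replicate 3.

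Other cytoskeletal genes overlapped between groups. The gene Rhpn1 was at -0.36, and at -0.12 without wild-type replicate 3. Nes, the intermediate filament protein nestin, was at -0.28 with -0.13 without that array. The unconventional myosin gene Myo1e was at -0.05 and the scaffold gene Iqgap1 at -0.10, and both were positive without it, at 0.09 and 0.12. Myh9, the non-muscle myosin IIA heavy chain, was at 0.23 (95% interval -0.12 to 0.58), with wild-type replicate 3 the lowest array at 12924 against 16543 to 19946 in the other arrays. Without that array it was at 0.08. A second Myh9 probe set (1417472_at) had its highest signal in wild-type replicate 3, at 10318 against 4816 to 6228, and a change of -0.08. A dim Myh9 probe set was higher without overlap, at 0.32.

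**Figure D3:**
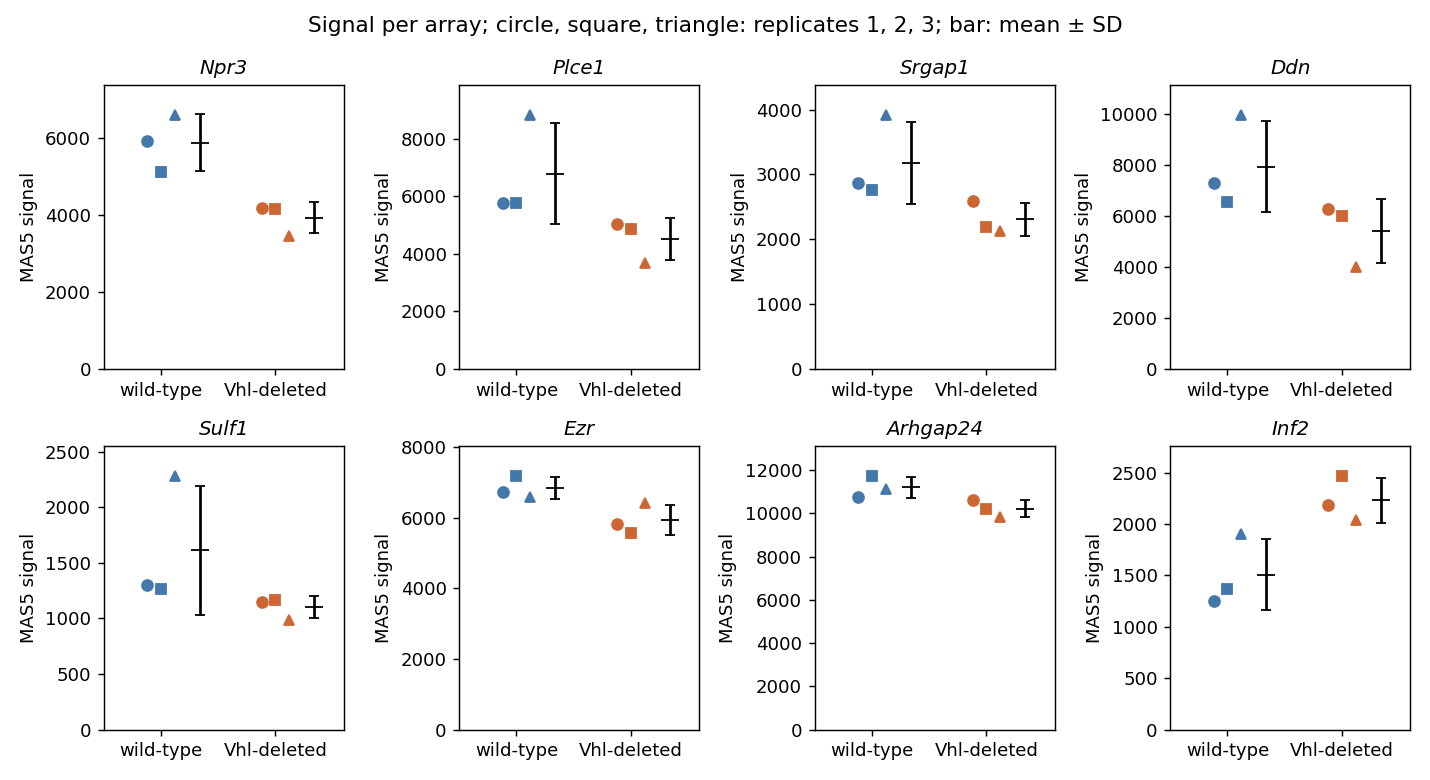
MAS5 signal (vertical axis, linear from 0) in each array for the 8 genes whose groups did not overlap; symbols mark replicates and bars the mean ± SD of 3 arrays. The wild-type triangle, replicate 3, is the highest point for Npr3, Plce1, Srgap1, Ddn and Sulf1 but not for Ezr, Arhgap24 or Inf2.

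Among the receptors, Npr3 had the lowest p of the 34 genes. It encodes the clearance receptor of natriuretic peptides. Its signals (1435184_at) were 5917, 5115 and 6589 in wild-type against 4178, 4157 and 3458 in Vhl-deleted replicates 1, 2 and 3. No value overlapped, and the mean signal moved from 5874 ± 738 to 3931 ± 410 (SD, n = 3). The change was -0.57 (SE 0.13, 95% interval -0.89 to -0.26), a ratio of 0.672, with a limma adjusted p of 0.608.

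The other probe sets of Npr3 ran in parallel, at -0.52 for 1448024_at, without overlap, and at -0.42 for 1450286_at, with overlap. The Npr3 change stayed between -0.67 and -0.48 when each array was left out in turn, and was -0.49 without wild-type replicate 3. It was -0.475 with the tubule covariate and -0.42 with the podocyte covariate, and it was not called in either (limma adjusted p = 0.133 and 0.257).

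Thsd7a and Pla2r1 encode antigens targeted in membranous nephropathy. Thsd7a was at 10769, 8867 and 12694 in wild-type against 9428, 9181 and 5960 in Vhl-deleted arrays, with a change of -0.41 (SE 0.21), which was -0.20 without Vhl-deleted replicate 3. Its second probe set (1456721_at) separated the groups, at 1695, 1618 and 2122 against 1333, 1446 and 1016, with a change of -0.51 (SE 0.16). Pla2r1 was at 0.07 (95% interval -0.26 to 0.41), with overlapping groups. The difference between these antigen genes was not tested. Mertk, a receptor kinase for the uptake of dying cells, was at 0.13 with all arrays and at 0.38 without wild-type replicate 3, where its signal was 8624 against 4991 to 7760 in the other arrays. Dystroglycan (Dag1) was at -0.01, the immunoglobulin-like receptor gene Ildr2 at -0.07 and the Slit receptor gene Robo2 at 0.10. Robo2 had 1 dim probe set, with signals from 59.7 to 212 and the widest interval of the set (-1.04 to 1.23). Over the 7 receptor genes the median was -0.01 (4 negative) and 0 were called; without wild-type replicate 3 it was 0.10 (3 negative).

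The signalling, exocytosis and nuclear genes Plce1, Dach1 and Rab3b had the lowest median of the role groups, at -0.52, with 0 called. Without wild-type replicate 3 that median was -0.36, with all 3 negative. In all 3 genes wild-type replicate 3 was the highest array and Vhl-deleted replicate 3 the lowest. Plce1 encodes phospholipase C epsilon, whose loss causes early-onset nephrotic syndrome. It gave 5785, 5771 and 8817 in wild-type against 5030, 4866 and 3692 in Vhl-deleted arrays. The groups did not overlap, and the change was -0.57 (SE 0.20, limma adjusted p = 0.933) and -0.36 without wild-type replicate 3. Dach1, a nuclear cofactor of transcription, was at -0.52 (95% interval -1.20 to 0.16). All of its 3 probe sets were negative, at -0.40 to -0.65, and without Vhl-deleted replicate 3, its lowest array at 1132, the change was -0.21. Rab3b, a small GTPase of regulated exocytosis, was at -0.38 (SE 0.26), at -0.18 without wild-type replicate 3 and at -0.19 without Vhl-deleted replicate 3. The polarity gene Pard3 was at -0.15, with 2 other probe sets at 0.12 and 0.07; without wild-type replicate 3 it was at -0.07 and without Vhl-deleted replicate 3 at -0.08.

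Secreted and matrix-modifying genes had a median of -0.08 with 5 of 7 negative and 0 called; without wild-type replicate 3, 2 of 7 were negative and the median was 0.05. Sulf1 and Sulf2 encode extracellular sulfatases that trim heparan sulfate. Sulf1 was at 1297, 1262 and 2280 in wild-type against 1151, 1162 and 988 in Vhl-deleted arrays. Its groups did not overlap, but wild-type replicate 3 was far above the rest, and the change of -0.49 (SE 0.23) was -0.22 without it. A second kept Sulf1 probe set (1436319_at) was at -0.53 (SE 0.34), and its groups overlapped. Sulf2 was at -0.08 (95% interval -0.53 to 0.38), and the difference between the sulfatases was not tested. Sema3g, a secreted semaphorin strongly expressed in podocytes, gave 20232, 21813 and 22655 in wild-type against 20262, 18795 and 17303 in Vhl-deleted arrays. Its groups met at replicate 1 of each, and the change was -0.20 (SE 0.10).

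Ptgds, a prostaglandin synthase gene, had the highest change of the set. Its signals were 547, 691 and 279 in wild-type against 688, 603 and 1212 in Vhl-deleted replicates 1, 2 and 3. It was lowest in wild-type replicate 3 and highest in Vhl-deleted replicate 3, the order seen in the tubule markers, and its change of 0.71 (95% interval -0.16 to 1.59) was 0.36 without the former, 0.42 without the latter, 0.35 with the tubule covariate and 0.16 with the podocyte covariate. Htra1, a secreted serine protease, was at 0.12, or 0.21 without wild-type replicate 3 and 0.06 without replicate 1, and its other probe set (1438251_x_at) read 7442, 7650 and 7287 in wild-type against 10115, 9075 and 8594 in Vhl-deleted arrays. That probe set separated the groups with a change of 0.31 (SE 0.11). Npnt, nephronectin, a matrix ligand of integrins, was at -0.05, with its 5 probe sets between -0.43 and -0.05. Of these, 1452107_s_at (-0.06) and 1421429_a_at (-0.43, SE 0.18) were lower without overlap, and in the others the groups overlapped. With the mean of the kept probe sets Npnt was at -0.207. Bmp7, a growth factor of the kidney, was at -0.08 with an interval of -0.84 to 0.68.

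Most members had several probe sets. In all, 89 probe sets carried a symbol of the set and 77 passed the filter. Of the 22 genes with several that passed, 14 had all of them on one side of 0, and 8 (Bmp7, Dag1, Ildr2, Iqgap1, Myh9, Myo1e, Pard3 and Sulf2) did not. Among the 43 probe sets that did not stand for their gene, 6 had all Vhl-deleted arrays lower, against 6.23% of all 8731 such probe sets, and 3 all higher, against 3.56%.

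**Figure D4:**
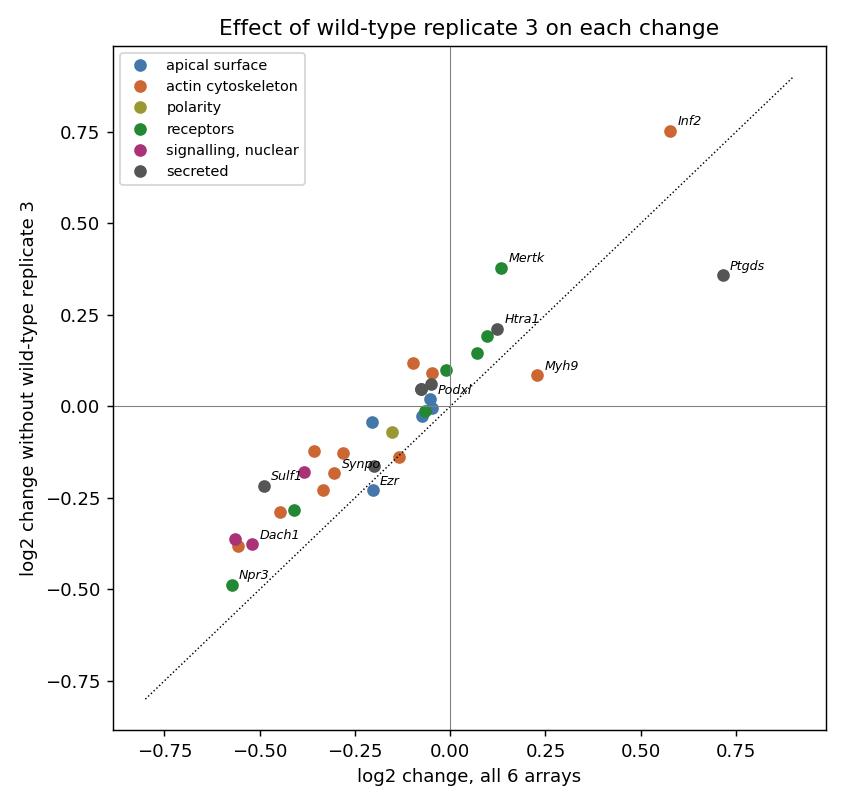
Log2 change of each of the 34 genes with all 6 arrays (horizontal) against the change without wild-type replicate 3 (vertical), with equal values on the dotted line. Of the 34 points 30 lie above the line, and Npr3 and Inf2 keep changes of -0.49 and 0.75 without that array.

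Partners of these proteins outside the set had 0 called genes among 36 tested of 38, with a median of -0.02 and 20 negative. The ezrin relatives Msn and Rdx were at -0.02 and 0.02. The actin machinery list had a median of -0.07 over 17 genes (11 negative), and of 0.12 (7 negative) without wild-type replicate 3. In it, Anln, a scaffold of the cytokinetic ring and of the podocyte cortex, had the lowest p. It was dim, at 101, 123 and 57.8 in wild-type against 164, 228 and 167 in Vhl-deleted arrays, all higher, with a change of 0.84 (limma adjusted p = 0.810). Kank1, an adaptor at focal adhesions, was at -0.43. In the polarity list (8 genes, median -0.09, or -0.205 without that array), the atypical protein kinase C gene Prkci and Pard3b were at -0.27 and -0.43, and in the Slit and semaphorin list (8 genes, median 0.07, or 0.04 without it) Srgap3 and Robo1 were at 0.40 and -0.25. None of these was called.

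Other podocyte lists lay on the same side. The slit diaphragm genes had a median of -0.17 over 6 tested (5 negative; Nphs1 at -0.38, Kirrel at -0.32) and the transcription factors one of -0.30 over 7 (5 negative; Lmx1b at -0.53, Foxc2 at -0.58), with 0 called in either. Wild-type replicate 3 was the highest array in 5 of the 6 and in 6 of the 7. Without it their medians were -0.04 and -0.11. Markers of other cells had medians of 0.52 (19 tubule genes; Kap at 0.73, Fbp1 at 0.87), 0.04 (17 endothelial; Fabp4 at 0.41, Cd34 at 0.29), 0.20 (11 mesangial and smooth muscle; Myl9 at 0.40, Tagln at 0.53), 0.31 (8 parietal; Vcam1 at 0.57, Krt7 at -0.42) and 0.56 (7 leukocyte; Cd74 at 1.02, H2-Ab1 at 0.71), with 0 called in each. In that order, 0, 8, 1, 1 and 1 of these genes were negative. Among the endothelial ones, Erg was at -0.25 and Pecam1 at -0.21. All Vhl-deleted arrays were higher in 4 leukocyte, 2 endothelial, 2 mesangial and smooth muscle, 2 parietal and 0 tubule genes. The share over all genes was 5.04%. Only 7 of the 13 listed leukocyte genes were tested, and in Lyz2 (0.56), Adgre1 (-0.13) and Cd68 (0.14) the groups overlapped. Without wild-type replicate 3 the medians of these lists, in the same order, were -0.04, 0.19, 0.28, -0.09 and 0.31.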

How the data were processed

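The authors deposited intensities, 1 MAS5 signal per probe set on a linear scale, per the submitters' processing notes, which give no version. In the deposited values the mean without the lowest and highest 2% is 500 in each of the 6 arrays. Of 45101 probe sets, 64 were controls, 34945 had 1 symbol in the array annotation, 932 several and 9160 none; 34741 matched RefSeq by Entrez number. Only probe sets with 1 symbol were tested.

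Signals were taken as log2(signal + 28), the pseudocount being the 25th percentile of all values. Probe sets in the upper 50% by mean log2 (signal above about 96.4) were kept, and the one with the highest mean log2 stood for each gene. The planned rule said only the brightest probe set in the upper part by mean. Several readings of it were run and their counts of genes called seen (9 to 15), and the mean log2 for both was then kept to follow an earlier processing of these data; the other readings are given as alternatives chosen after seeing the data. All genes were fitted together with limma 3.58.1 in R 4.3.3 (lmFit, eBayes with an intensity trend, Benjamini-Hochberg adjustment, threshold 0.05) and the code was tested on simulated data. The pseudocount understates changes of dim genes.

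The members and lists were chosen with earlier results of these data known, and no set test was run. Values in every array are given for the 12 members of lowest p, those whose groups did not overlap, Podxl and Synpo; second probe sets and values of other members were chosen after they were seen. Of other lists, the 2 genes of lowest p were named (Nphs1, Wt1, Lrp2 and the ezrin relatives aside). Alternatives changed scaling, pseudocount, filter, probe set, variance model, array weights, covariates, the replicate block and the threshold, and left out each array. The weight given to wild-type replicate 3 was chosen after seeing the data.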

Additional observations from a re-analysis of the deposited data

How the results depend on the processing

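Of 34 podocyte genes, 21 kept one sign in all alternative fits that held them. None was called in 23 of the 24 fits, and with the tubule covariate 1 was (Inf2). The count over all genes, 9, was 33 with array weights, 35 with the tubule covariate, 22 with the podocyte covariate, 18 at a threshold of 0.1 and 1 to 12 with an array left out. In 5 readings of the probe set rule added after seeing the data it was 15 (filter and probe set by mean signal, with or without control probe sets in the median), 14 (filter by mean log2, probe set by mean signal), and 10 and 9 (median over annotated probe sets, by mean signal and by mean log2). The reading used has the lowest of these counts, equal to the last. With the replicate block 1 gene was called and 0 of the 34 (lowest limma adjusted p = 0.992). Deviations of arrays with the same number correlated at -0.02, -0.41 and -0.51. With 3 arrays per group, and each deviation taken from its group mean, these values cannot show whether the numbers pair the mice.

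The 13 genes that changed sign were not called. With array weights, changes were Dag1 0.047, Ildr2 0.0427, Iqgap1 0.0927, Myo1e 0.1, Npnt 0.0875, Podxl 0.0878 and Sulf2 0.0907. With the tubule covariate, changes were Dag1 0.0475, Iqgap1 0.0792, Myo1e 0.051, Npnt 0.0401, Podxl 0.022 and Sulf2 0.0799. With the podocyte covariate, changes were Dag1 0.0618, Ildr2 0.0256, Iqgap1 0.153, Myo1e 0.0934, Npnt 0.0804, Podxl 0.0665, Slc9a3r2 0.0126 and Sulf2 0.168. With the mean of the kept probe sets, changes were Iqgap1 0.0199, Pard3 0.013 and Sulf2 0.0119. With an array left out, changes ran from -0.421 to 0.143 (Bmp7), -0.132 to 0.101 (Dag1), -0.13 to 0.000536 (Ildr2), -0.216 to 0.117 (Iqgap1), -0.0133 to 0.38 (Mertk), -0.177 to 0.0916 (Myo1e), -0.112 to 0.0614 (Npnt), -0.0503 to 0.145 (Pla2r1), -0.135 to 0.0289 (Podxl), -0.304 to 0.53 (Robo2) and -0.219 to 0.0977 (Sulf2). The cause was not tested. Median scaling moved the median of all genes to -0.06 and that of the set to -0.18.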
